A study of Mus musculus with 9 samples.

Results

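Messenger RNA of 10 genes of the major histocompatibility complex (MHC) class I antigen presentation pathway was followed in mouse CD8+ T cells with and without an intact ketone body oxidation pathway. The genes were listed by name for their place in the pathway, by a rule that uses no measured value: the heavy chains H2-K1 and H2-D1, the light chain B2m, the peptide transporter subunits Tap1 and Tap2, the loading factor Tapbp, the immunoproteasome subunits Psmb8, Psmb9 and Psmb10, and the regulator Nlrc5. All 10 were found among the 55471 genes counted. The cells were OT-I cells, whose transgenic receptor recognises an ovalbumin peptide held by the H2-K1 product. Control libraries (n = 4) came from cells labelled Bdh1-WT;shCtrl, with an intact Bdh1 and a short hairpin RNA against firefly luciferase. DKO libraries (n = 5) came from cells labelled Bdh1-KO;shOxct1, a knockout of Bdh1 with a hairpin against Oxct1, so that the loss of Oxct1 is a knockdown. Cells of both groups were activated in culture through CD3 and CD28 with interleukin-2, transduced, and sorted for the Ametrine reporter. They were transferred into CD45.1 C57BL/6 mice, which were infected with Listeria monocytogenes expressing ovalbumin (LmOVA), and were sorted as CD45.2+ Ametrine+ cells from the spleen on day 7. The sources used here do not give the ages of the animals, the way the Bdh1 knockout was made or whether the replicates of a group came from separate animals, so p-values measure only the spread between these samples.

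Class I molecules display fragments of a cell's own proteins to CD8+ T cells, and nearly all nucleated cells carry them, T cells included. The proteasome cuts proteins into peptides, the TAP transporter moves these into the endoplasmic reticulum, and tapasin helps load them onto a heavy chain paired with β2-microglobulin. Interferons raise transcription of most of these genes. NLRC5, which does not bind DNA by itself, activates them through factors that sit on a conserved block in their promoters.

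Promoters of the chains of the complex are shown because they are known to carry this conserved block, and that of Tap1 is shown beside them. RefSeq promoter windows (GRCm38.p6, 250 bases before to 50 after the start of transcription) were matched for 8 of the 10 genes. The sequences below are the 250 bases before the start, read 5′ to 3′ on the strand of the gene. Capitals mark matches, on either strand, to 4 short motifs. GGGATTCCC is an NF-κB site known as part of enhancer A, TTTCACTTC is the core of an interferon-stimulated response element, TGACG is the core of the X2 box bound by CREB and ATF factors, and ATTGG is the core of the Y box, an inverted CCAAT bound by NF-Y.
H2-K1, chr17:34000334-34000583, minus strand: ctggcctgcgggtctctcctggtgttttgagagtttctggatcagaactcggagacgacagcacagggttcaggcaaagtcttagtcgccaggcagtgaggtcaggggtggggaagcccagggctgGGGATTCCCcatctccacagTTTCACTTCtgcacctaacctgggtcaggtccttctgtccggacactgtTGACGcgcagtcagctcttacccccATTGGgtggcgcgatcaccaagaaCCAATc
H2-D1, chr17:35262844-35263093, plus strand: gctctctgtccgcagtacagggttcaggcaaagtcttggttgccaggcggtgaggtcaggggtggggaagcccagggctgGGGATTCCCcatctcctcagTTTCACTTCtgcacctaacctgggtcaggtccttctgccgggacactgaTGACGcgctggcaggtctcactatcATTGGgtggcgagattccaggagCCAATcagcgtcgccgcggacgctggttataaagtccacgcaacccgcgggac
B2m, chr2:122147437-122147686, plus strand: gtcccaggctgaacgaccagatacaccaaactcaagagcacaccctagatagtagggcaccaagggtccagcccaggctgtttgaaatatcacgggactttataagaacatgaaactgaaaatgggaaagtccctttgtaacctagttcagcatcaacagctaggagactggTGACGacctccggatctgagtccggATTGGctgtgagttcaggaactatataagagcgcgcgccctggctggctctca
Tap1, chr17:34187306-34187555, plus strand: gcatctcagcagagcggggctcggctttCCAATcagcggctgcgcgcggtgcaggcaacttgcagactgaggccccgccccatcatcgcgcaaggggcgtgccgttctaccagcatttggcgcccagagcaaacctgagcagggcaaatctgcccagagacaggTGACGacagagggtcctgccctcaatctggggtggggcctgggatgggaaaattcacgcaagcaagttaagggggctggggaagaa

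The H2-K1 and H2-D1 sequences held the same 5 matches in the same order, and 177 of their 203 aligned bases (87.2%) were identical. Over all members with a window, GGGATTCCC and TTTCACTTC were each found in 2 of 8 genes, H2-K1 and H2-D1, against 0.353% and 0.505% of the 32851 promoter windows of the mouse genome. TGACG was found in 5 of 8 genes against 20.8% of windows, and ATTGG in 6 of 8 against 37.4%. The motifs were chosen as known elements of class I promoters, and H2-K1 and H2-D1 are alike in sequence. A gene can also have several windows, as H2-K1 has. The shares are therefore a description and test nothing. Counted from the start of transcription, TGACG began at position -78 and ATTGG at -53 in B2m. In Tap1, TGACG began at -86 and ATTGG, on the opposite strand, at -222. The windows of Tap1 and Psmb9 share 275 bases, since these genes are read in opposite directions from 1 stretch of DNA. No match to one motif overlapped a match to another. Only these exact letters were searched, so a variant of an element, in B2m or any other promoter, was left unmarked. An absent match does not mean an absent element. A match describes the letters only, and no binding was measured.

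Libraries had 45205993 to 59853080 counts in genes, which were 67.0 to 74.04% of all reads. Levels are given as CPM, which are counts scaled to a common library total, with totals adjusted by the TMM method. Control replicate 1 stood apart on the first principal component (-79.12, other libraries -7.25 to 23.47) and control replicate 3 on the second (-70.17, others -5.59 to 20.19). Oxct1 fell from 63.1 ± 5.73 CPM in control (SD, n = 4) to 5.16 ± 0.369 CPM in DKO (SD, n = 5), and Bdh1 from 30.5 ± 4.16 to 10.6 ± 1.24 CPM (adjusted p = 4.58e-09 and 0.000136 in edgeR), each without overlap of the groups. All 6 genes of a CD8 T cell list exceeded 1 CPM, with Cd8a at 719 ± 56.3 (control) and 715 ± 33.4 CPM (DKO), while Cd4 was at 0.172 and 0.344 CPM. In edgeR all 6 CD8 T cell genes were below 0 (median log2 fold change -0.26), against 51.4% of all genes. Cd8a was nearest to 0 (-0.01) and Cd8b1 farthest (-0.40). Of the 6, 4 were at an unadjusted p under 0.05 (all genes, 16.0%). Only Cd8b1 was called lower, 1 of 6 against 1.51% of all genes. Summed CPM of B cell genes was 186 to 270.5 in control and 195 to 215 in DKO, with Pax5 at 0. Myeloid and dendritic genes summed to 501 to 821 CPM in control and 521 to 589.7 CPM in DKO, with 9 of 12 above 1 CPM. Itgax alone made up most of this sum, at 494 ± 131 CPM (control) and 408 ± 28.3 CPM (DKO). Cd14, Flt3 and Siglech were under 1 CPM. Of 10 genes of this list tested, 8 were below 0 (all genes, 51.4%), and 2 were called lower, against 1.51% of all genes. These were Ctss (81.1 ± 8.21 against 51.2 ± 5.83 CPM, adjusted p = 0.00734) and Cd68 (29.1 ± 4.97 against 16.8 ± 2.51 CPM, adjusted p = 0.0138). Lyz2, a lysozyme of myeloid cells, lay the other way, at 1.47 to 3.40 CPM in control and 2.80 to 13.6 CPM in DKO (adjusted p = 0.206), with DKO replicate 1 the highest. CD8 T cell genes summed to 5970 to 8129 CPM in control and 5384 to 5841 CPM in DKO (exact permutation test, two-sided, p = 0.0159, the smallest that 4 against 5 libraries allow; adjusted over 5 lists 0.0794). The other lists overlapped between groups, at 30.7 to 39.3 and 34.6 to 46.6 CPM for CD4 T cell genes and 7.21 to 35.9 and 11.2 to 36.8 CPM for erythroid and platelet genes. The part of other cells in any result was not tested.

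None of the 10 genes passed the test between control and DKO. By the quasi-likelihood test of edgeR, adjusted by Benjamini-Hochberg over 14918 genes, 0 of 10 had an adjusted p under 0.05, against 2.83% of all genes tested. At an unadjusted p under 0.05 the count was 1 (B2m), against 16.0% of all genes tested, and DESeq2 and limma-voom also called 0 of 10. The CPM of the groups overlapped for every member, while they did not overlap for 8.71% of all genes. Fitted log2 fold changes, DKO over control, ran from -0.25 to 0.15 with a median of 0.02 (all genes, -0.01). Of the members 6 were above 0 and 4 below. The 95% intervals of single genes allowed DKO levels from 70.9 to 155% of control, the upper bound being that of Nlrc5. Without control replicate 1 they allowed 81.3 to 123.5%. In bulk RNA, fewer cells of a type and less RNA per cell cannot be told apart.

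**Figure D1:**
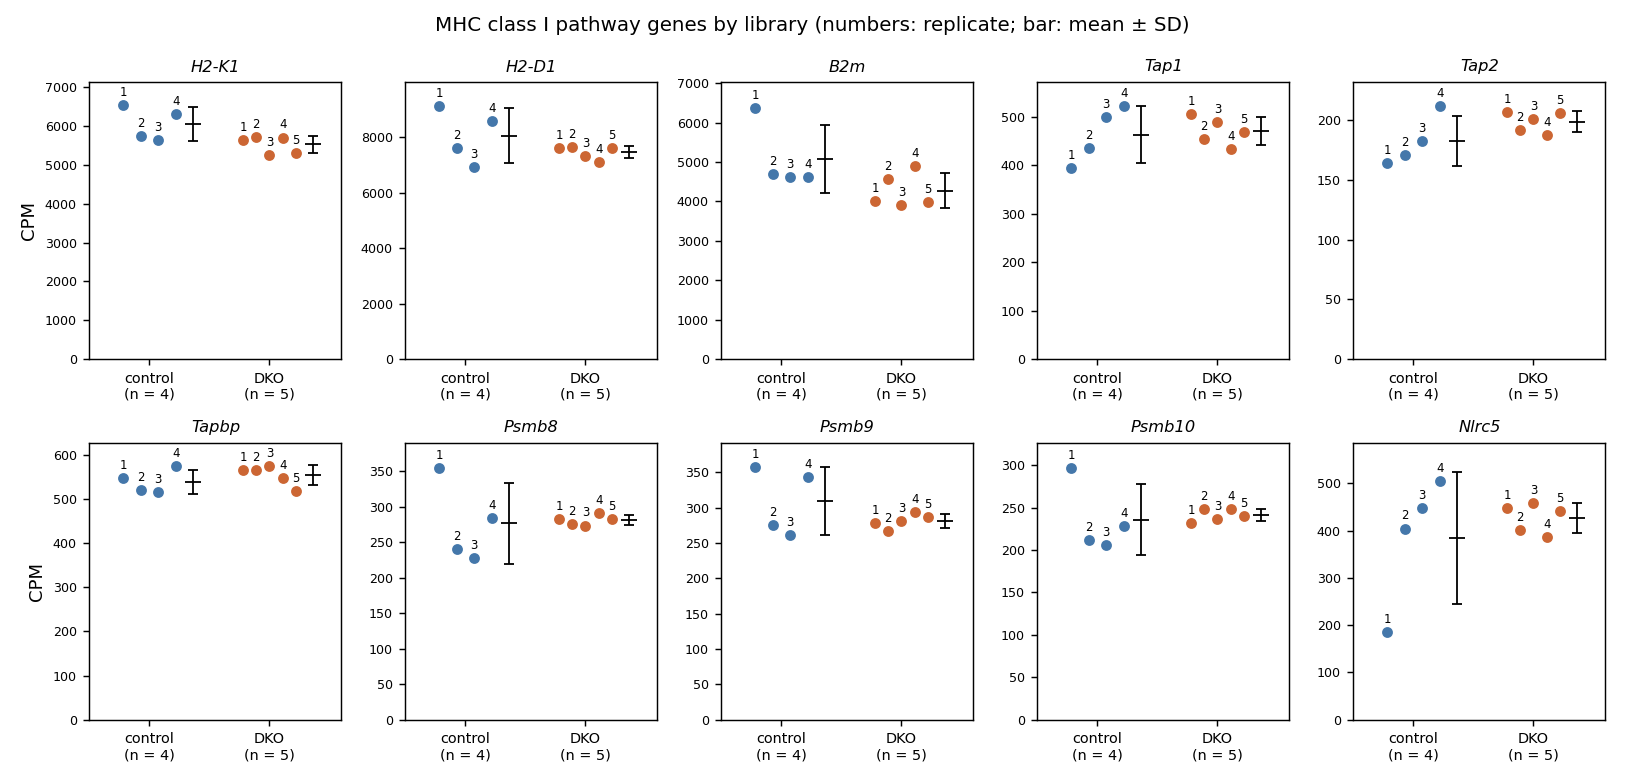
CPM of each of the 10 genes in every library (points), with the group mean and SD (bars); each panel has its own axis in CPM, control on the left and DKO on the right. The groups overlap in every panel, and control replicate 1 lies far from the other controls for B2m (6374 CPM) and Nlrc5 (185 CPM).

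**Figure D2:**
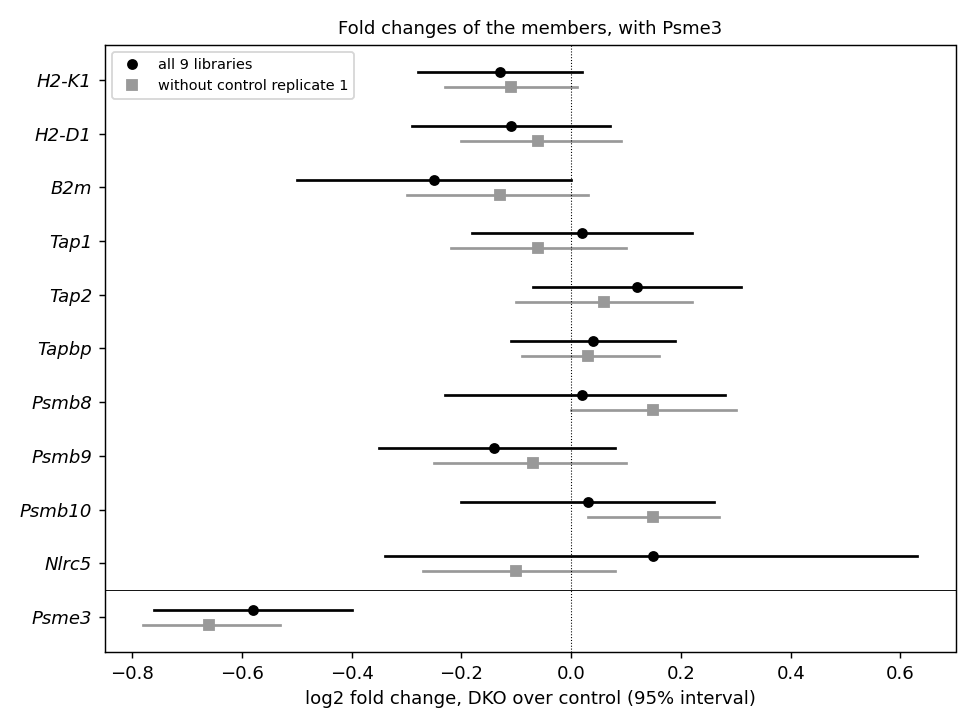
Log2 fold change of DKO over control for the 10 genes and, below the line, for Psme3, with 95% intervals, over all 9 libraries (circles) and without control replicate 1 (squares). Estimates of the 10 genes lie between -0.25 and 0.15 over all libraries, and Nlrc5 has the widest interval, which narrows from -0.34 to 0.63 down to -0.27 to 0.08.

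Heavy chains and β2-microglobulin, which form the surface complex, were among the most abundant messages of these cells. By mean CPM, H2-D1 ranked 2, H2-K1 ranked 4 and B2m ranked 7 among the 14918 tested genes. Together they made up 1.72 to 2.28% of all counts in genes in control and 1.65 to 1.78% in DKO. None of these messages differed between groups beyond the test's threshold.

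H2-K1 (chr17:33996017-34000347, minus strand, GRCm38) encodes the heavy chain that presents the ovalbumin peptide to OT-I cells. Its level was 6533, 5730, 5640 and 6312 CPM in control replicates 1 to 4 and 5632, 5717, 5264, 5703 and 5309 CPM in DKO replicates 1 to 5. Controls 1, 2 and 4 were above every DKO library, control 2 by little, and control 3 lay among the DKO values. The means were 6054 ± 437 and 5525 ± 221 CPM, or -0.13 as a log2 fold change (SE 0.07, adjusted p = 0.391).

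H2-D1 (chr17:35262730-35267499, plus strand) encodes the other classical heavy chain of this strain. Controls held 9131, 7594, 6939 and 8586 CPM, and DKO libraries 7604, 7657, 7337, 7123 and 7618 CPM. The DKO values filled a narrow band inside the control range, with control 3 below all of them and controls 1 and 4 above. Their log2 fold change came to -0.11 (SE 0.08, adjusted p = 0.567).

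B2m (chr2:122147686-122153083, plus strand) encodes the light chain, which every class I heavy chain needs to reach the surface. Controls 1 to 4 had 6374, 4700, 4625 and 4629 CPM, and the DKO libraries 4019, 4567, 3908, 4909 and 3977 CPM. DKO replicate 4 was above 3 of the controls, and the other 4 DKO libraries were below all controls. In edgeR the log2 fold change was -0.25 (SE 0.11, interval -0.50 to -0.00), with an unadjusted p = 0.0486 and an adjusted p = 0.31. Control replicate 1 alone stood far above the rest, and without it the log2 fold change was -0.13 (adjusted p = 0.359).

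The peptide transporter and tapasin lay at about the same level in both groups. Tap1 (chr17:34187553-34197225, plus strand) and Tap2 (chr17:34203527-34216321, plus strand) encode the subunits of the pump that carries peptides into the endoplasmic reticulum. Tap1 was at 394, 436, 499 and 522 CPM in control and 505, 454, 488, 433 and 469 CPM in DKO. All DKO values fell between the lowest and the highest control. The log2 fold change of Tap1 was 0.02 (SE 0.09, adjusted p = 0.931), and its sign changed in 4 of 16 alternative settings.

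Tap2 was at 164, 171, 182 and 212 CPM in control and 207, 192, 201, 187 and 206 CPM in DKO. Control 4 was the highest library of all, and the other 3 controls were below every DKO library. The means were 182 ± 21 and 198 ± 8.70 CPM, or 0.12 as a log2 fold change (SE 0.09, adjusted p = 0.536).

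Tapbp (chr17:33915899-33929292, plus strand) encodes tapasin, which bridges the transporter and the empty class I molecule. Controls held 547, 521, 515 and 574 CPM, and DKO libraries 565, 566, 576, 547 and 518 CPM. The groups covered almost the same range. On the log2 scale DKO was at 0.04 relative to control (SE 0.07, adjusted p = 0.819).

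The immunoproteasome subunits, which replace catalytic subunits of the standard proteasome, showed a wide control group and a tight DKO group. Psmb8 (chr17:34197721-34201454, plus strand) was at 354, 240.0, 228 and 283 CPM in control and 282, 275, 273, 291 and 283 CPM in DKO. The 5 DKO libraries lay close to control 4, above controls 2 and 3 and below control 1. Over all libraries the log2 fold change was 0.02 (SE 0.12, adjusted p = 0.944), and it was 0.15 (adjusted p = 0.248) without control replicate 1.

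Psmb9 (chr17:34181987-34187764, minus strand) was at 357, 276, 262 and 344 CPM in control and 278, 267, 281, 294 and 287 CPM in DKO. Controls 1 and 4 were above all DKO libraries, and control 3 was below them. For Psmb9 the log2 fold change was -0.14 (SE 0.10, adjusted p = 0.539).

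Psmb10 (chr8:105935735-105938444, minus strand) was at 297, 211, 206 and 228 CPM in control and 232, 248, 237, 249 and 240.1 CPM in DKO. Control 1 was the highest library and the other 3 controls the lowest. The log2 fold change of 0.03 (SE 0.10, adjusted p = 0.906) became 0.15 (interval 0.03 to 0.27, adjusted p = 0.135) without control replicate 1.

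Nlrc5 (chr8:94434356-94527272, plus strand), the transactivator of class I genes, had the widest spread of the members in control, through replicate 1 (SD of log2 CPM 0.65, and 0.16 without it). Its level was 185, 404, 447 and 504 CPM in control and 449, 400.4, 458, 386 and 441 CPM in DKO. Control 1 held less than any other library, and the remaining 8 libraries overlapped. The means were 385 ± 139.6 and 427 ± 31.8 CPM, and the log2 fold change was 0.15 (SE 0.22, adjusted p = 0.792). Without control replicate 1 it was -0.10 (SE 0.08, interval -0.27 to 0.08, adjusted p = 0.572).

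Levels of different genes were compared per kilobase of exon, counting every annotated exon of a gene. This length was 3381 bases for Psmb8, 3660 for Psmb9 and 5476 for Tap1. Which transcripts the cells used was not measured, and a shorter transcript would give a higher level per kilobase. The order of genes given here therefore holds for this length only. B2m was highest at 5389 CPM per kb (4544 to 7412 over the 9 libraries), followed by H2-D1 at 2998 (2691 to 3541) and H2-K1 at 1961 (1792 to 2224), whose ranges were separate. Tapbp at 151 (142 to 159) and Psmb10 at 139.9 (121 to 174) CPM per kb overlapped. Tap1 at 85.2 (71.9 to 95.3), Psmb8 at 82.5 (67.4 to 105) and Psmb9 at 80.3 (71.6 to 97.7) CPM per kb overlapped as well. Tap2 at 50.6 (43.4 to 56.0) and Nlrc5 at 48.1 (21.8 to 59.4) CPM per kb formed the lowest pair. Antisense genes overlap Psmb8, Tap2 and Tapbp, and unstranded counting leaves out such reads; Psmb8 and Tap2 change place in this order with the way strands are counted. With the strand columns added, Psmb8 was at 183, Tap2 to 108 and Tapbp to 193 CPM per kb, since Gm20496 overlaps Psmb8 and Tap2, Gm15821 Tap2, and Gm19412 Tapbp. On that count the log2 fold changes were 0.01 for Psmb8 (adjusted p = 0.986), 0.11 for Tap2 (0.56) and 0.06 for Tapbp (0.683). Of the 50-base stretches of their transcripts, 12.8% in H2-D1 and 9.63% in H2-K1 also occurred in transcripts of other genes, so some of their reads cannot be assigned with certainty. For B2m, Psmb9, Psmb10 and Nlrc5 the share was 0%.

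The DKO libraries varied less than the controls for each of the 10 members on the log2 CPM scale. The SD was smaller in DKO for 10 of 10, against 76.0% of all tested genes, and for 9 of 10 against 54.1% without control replicate 1. The exception was B2m, at 0.01 in the remaining controls and 0.15 in DKO. In control replicate 1 the deviation from the other controls followed annotated exon length, all exons of a gene together, over the whole transcriptome. Its median over tested genes was 0.41 for exons under 2000 bases (3934 genes), 0.05 from 2000 to 5000 bases (5881 genes) and -0.33 from 5000 bases (5088 genes). Medians in the other libraries were -0.18 to 0.17. Among members, B2m with 860 bases of exon deviated by 0.45, Psmb10 with 1705 bases by 0.46, Psmb8 with 3381 bases by 0.50, Tap1 with 5476 bases by -0.30 and Nlrc5 with 8493 bases by -1.28. The part of length in any result was not tested.

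**Figure D3:**
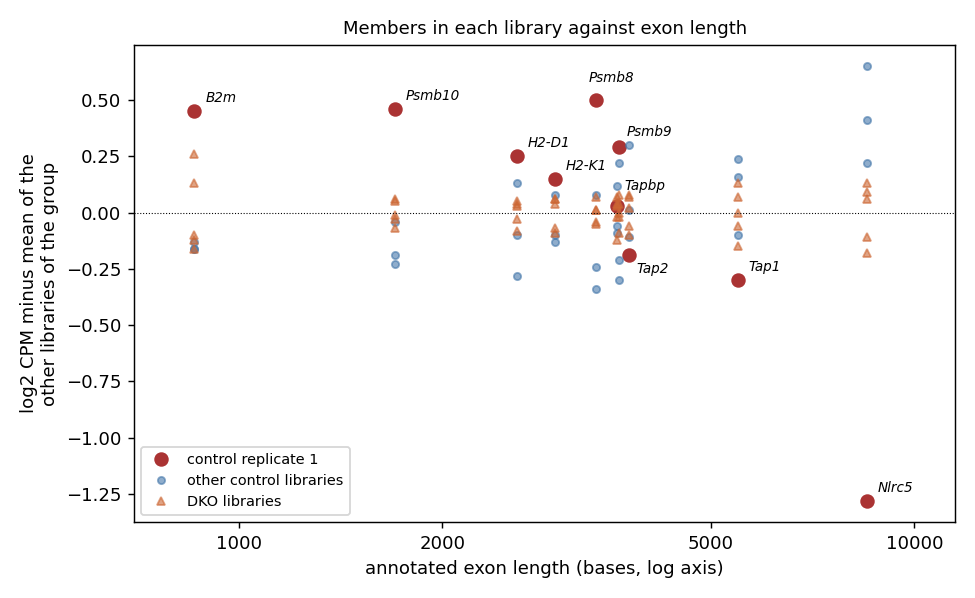
Deviation of each library from the mean of the other libraries of its group (vertical axis, log2 CPM) against annotated exon length (bases, log axis) for the 10 genes; large labelled points are control replicate 1, small circles the other controls and triangles DKO. In control replicate 1, B2m (0.45), the shortest, lies above 0 and the longest, Nlrc5 (-1.28), lies farthest below.

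Members varied together in several pairs, given as Pearson correlations of log2 CPM over 9 libraries and then over 8 without control replicate 1. Psmb8 and Psmb10 had 0.95 and 0.89. Tap1 and Nlrc5 had 0.85 and 0.93, and H2-K1 and H2-D1 had 0.81 and 0.63. B2m and Nlrc5 ran in opposite directions with -0.86, which became -0.42. These values describe libraries that share depth and the length trend, and they carry no test. The mean of the standardised members was 0.58, -0.58, -0.60 and 0.83 in controls 1 to 4 and between -0.20 and 0.11 in DKO. Among 8066 genes of at least 10 CPM outside the lists used here, those nearest to this mean over the 9 libraries were Rilpl2 (0.898), Ier3 (0.897), Zfp444 (0.893), Kars (0.883) and Poll (0.880). Their correlations were 0.84 to 0.88 without control replicate 1. None of the 5 passed the test between groups (adjusted p 0.647 to 0.993).

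Ratios within a library do not depend on scaling between libraries, and 6 were tested with a two-sided exact permutation test. The ratio of Psmb9 to Psmb6, the standard subunit it replaces, had log2 values of 0.77, 0.92, 1.06 and 1.23 in control and 0.65, 0.80, 0.68, 0.70 and 0.61 in DKO. Only DKO replicate 2 reached into the control range, just above control 1. The means were 1.00 ± 0.20 and 0.69 ± 0.07, a difference of -0.31 (exact p = 0.0317, adjusted over 6 ratios 0.19). Psmb6 itself was at 157 ± 36.5 CPM (control) and 175 ± 12.7 CPM (DKO; log2 fold change 0.16, adjusted p = 0.604), and without control replicate 1 it was higher in DKO (0.32, adjusted p = 0.0369). Psmb8 over Psmb5 differed by -0.08 (exact p = 0.222, adjusted 0.429) and Psmb10 over Psmb7 by -0.01 (exact p = 0.873, adjusted 0.873). Tap1 over Tap2 was 1.34 ± 0.08 in control and 1.24 ± 0.05 in DKO (difference -0.10, exact p = 0.0635, adjusted 0.19). The level of a ratio with Tap2, Psmb8 or Psmb7 depends on how strands are counted. Adding the strand columns gave 2.13, 2.22 and 2.21 times the unstranded counts of these genes. H2-K1 over H2-D1 differed by -0.03 (exact p = 0.587, adjusted 0.705), and H2-K1 over B2m by 0.11 (exact p = 0.286, adjusted 0.429). No ratio passed after adjustment, but with 4 against 5 libraries a single differing ratio could not go below an adjusted p of 0.0952 whatever its size.

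**Figure D4:**
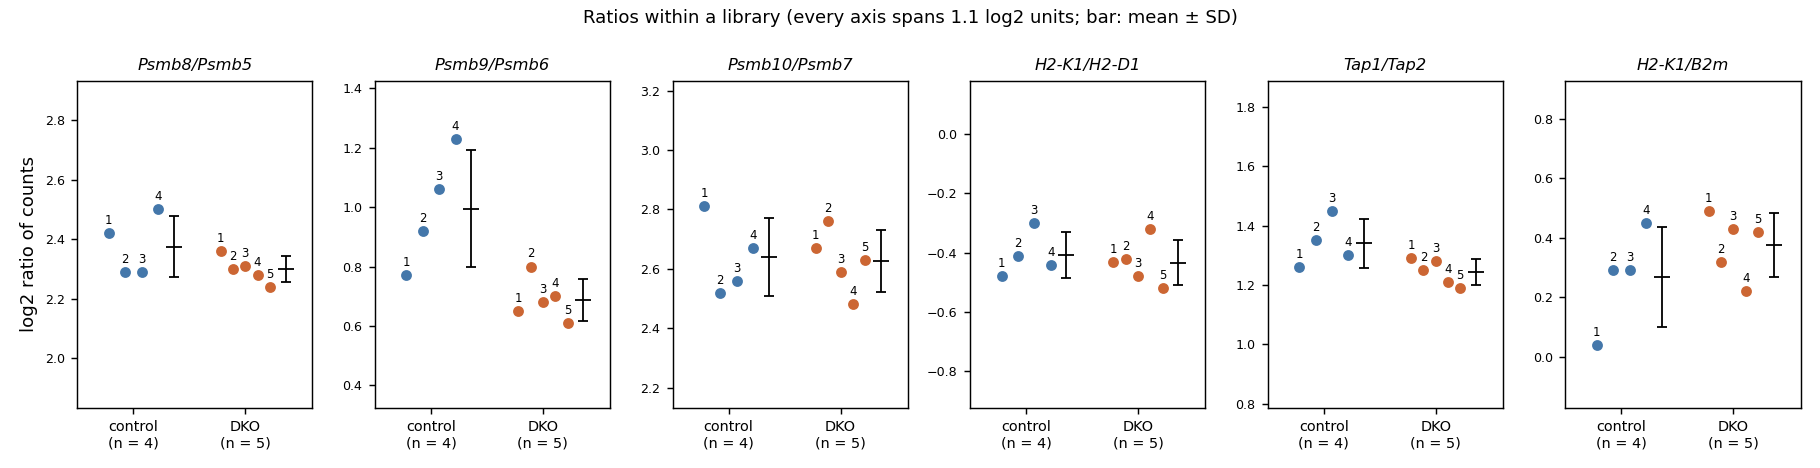
Log2 ratios of counts for 6 gene pairs in every library (points, numbered by replicate), with the group mean and SD (bars); the vertical axis is the log2 ratio and groups are control (n = 4) and DKO (n = 5). Psmb9/Psmb6 shows the largest gap between means (1.00 against 0.69), with DKO replicate 2 (0.80) above control replicate 1 (0.77).

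Other genes of the pathway were taken from lists by function. Of 19 tested genes of the standard proteasome and its activators, 1 fell and 18 did not pass (median log2 fold change -0.07), against 1.51% of all genes called lower. It was Psme3, which encodes the nuclear proteasome activator PA28γ. Psme3 was at 200.4, 254, 249 and 224 CPM in control and 149, 161, 159.6, 150.3 and 156 CPM in DKO, with all controls above all DKO libraries. Its log2 fold change was -0.58 (SE 0.08, interval -0.76 to -0.40, adjusted p = 0.00463). The other activator genes of this family, Psme1 (286 ± 61.4 against 252 ± 15.2 CPM, adjusted p = 0.511) and Psme2 (195 ± 47.4 against 168 ± 14.6 CPM, adjusted p = 0.484), did not pass. Psma7, the most abundant gene of the list, was at 273 ± 59.1 and 266 ± 8.78 CPM (adjusted p = 0.904).

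Of 8 peptide loading and trimming genes, 0 passed in edgeR and DESeq2. In edgeR 1 was at an unadjusted p under 0.05 (all genes, 16.0%), and limma-voom called 1. That gene is Canx, the chaperone calnexin, at 296 ± 45.2 CPM (control) and 234 ± 22.1 CPM (DKO; log2 fold change -0.34, adjusted p = 0.148), named here after its values were seen. Without control replicate 1 its adjusted p was 0.0157. Pdia3, a disulphide isomerase of the loading complex, was at 532 ± 23.9 and 547 ± 36.3 CPM (adjusted p = 0.819).

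Of 17 genes for nonclassical and class I-like molecules, 15 were tested and 0 passed in edgeR, 4 at an unadjusted p under 0.05, with 1 called by DESeq2 and 1 by limma-voom. Of the 15, 12 were below 0 (median -0.13), against 51.4% of all genes below 0 and 16.0% at an unadjusted p under 0.05. H2-Q7, the most abundant, was at 1623 ± 162 and 1419 ± 54.8 CPM (log2 fold change -0.19, adjusted p = 0.252), and without control replicate 1 it passed (-0.25, adjusted p = 0.0433). Of its transcript, 26.4% of 50-base stretches also occur in other genes, so its reads cannot be assigned with certainty. Cd1d1, which presents lipids, was at 92.5 ± 7.46 and 76.1 ± 3.22 CPM (adjusted p = 0.0939 in edgeR, 0.0129 in DESeq2, 0.0252 in limma-voom and 0.0457 in edgeR without control replicate 1), and it was chosen after its values were seen.

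Of the regulators of class I promoters, Irf1, an interferon-induced activator and the most abundant of the list, was at 309 ± 19.9 and 332 ± 15.1 CPM (log2 fold change 0.10, adjusted p = 0.525). Rfx5, part of the complex through which NLRC5 acts, was at 12.7 ± 4.40 and 14.6 ± 2.01 CPM (adjusted p = 0.719), and Rela, the NF-κB subunit, at 227.5 ± 22.3 and 252 ± 13.9 CPM (adjusted p = 0.416).

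Of 20 interferon-inducible genes outside the class I pathway, 4 fell (all genes, 1.51% lower), 16 did not pass and 18 were below 0 (median -0.22; all genes, 51.4% below 0). Oas1a, which makes the activator of RNase L, fell from 11.2 ± 1.94 to 4.92 ± 1.12 CPM (log2 fold change -1.18, adjusted p = 0.0108). Rsad2, the antiviral enzyme viperin, fell from 5.48 ± 1.49 to 2.31 ± 0.795 CPM (adjusted p = 0.0343). Usp18, which removes ISG15 from proteins, fell from 18.6 ± 0.554 to 10.9 ± 2.42 CPM (adjusted p = 0.0218), and Rtp4 from 18.5 ± 5.74 to 8.67 ± 2.44 CPM (adjusted p = 0.0352). Leaving out 1 library dropped Rsad2, Usp18 or Rtp4 from the calls in several cases, and the count of 4 became 2 without control replicate 3 and 1 without control replicate 4 or DKO replicate 1, 3 or 5. Ifi47, an interferon-induced GTPase and the most abundant of the list, was at 344 ± 44.4 and 339 ± 40.8 CPM (adjusted p = 0.944). The difference between these genes and the 10 members was not tested.

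**Figure D5:**
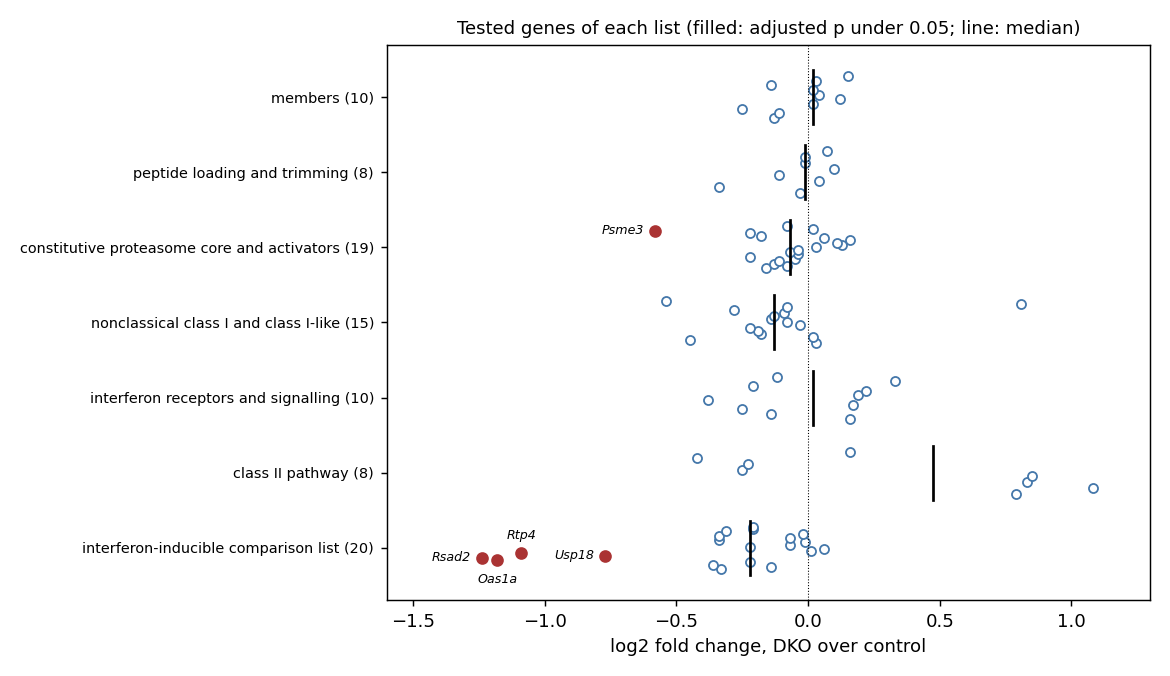
Log2 fold change, DKO over control, of every tested gene in the 10 members and 6 lists (points; filled where the adjusted p was under 0.05), with the median of each list as a line. No member is filled, while Psme3 and 4 interferon-inducible genes are, all below 0.

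Of 10 genes for interferon receptors and signalling, 0 passed in edgeR and DESeq2. In edgeR 2 were at an unadjusted p under 0.05 (all genes, 16.0%), and limma-voom called 2. Jak1, a kinase of these receptors and the most abundant gene of the list, was at 2997, 4839, 4892 and 4734 CPM in control and 3174, 3252, 3418, 3065 and 3819 CPM in DKO. Control 1 was below every DKO library and the other 3 controls were above them all. Jak1 had a log2 fold change of -0.38 (adjusted p = 0.179), and without control replicate 1 it was -0.54 (adjusted p = 0.00165). Ifngr1, a chain of the interferon-γ receptor, was at 538 ± 76.8 and 600 ± 69.2 CPM (adjusted p = 0.534). Ifnar1, also called by limma-voom and named here after its values were seen, was at 172 ± 31.6 and 145 ± 8.58 CPM. Its adjusted p was 0.344 in edgeR, 0.0218 in limma-voom and 0.00702 in edgeR without control replicate 1.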

How the data were processed

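RNA from 9 libraries was analysed, 4 control and 5 DKO, grouped by the labels. Per the labels' protocols, polyA RNA extracted with Qiagen RNeasy was made into libraries with Takara SMART-Seq v4 and Nextera Flex. The authors deposited raw counts for each gene, as 1 unstranded column and 1 column for each strand. The submitters' processing notes name Trim Galore 0.6.0, STAR 2.7.8a and mm10, and the sources used here do not give the annotation. The strand columns were nearly equal (the first held 49.93 to 50.12%), and unstranded counts were used. They omit reads from places where opposite-strand genes overlap, and reads that map to several places (5.8 to 6.79% of reads). Library sizes also omit unmapped reads (10.27 to 16.67%), ambiguous reads (4.97 to 5.31%) and those outside features (4.01 to 5.2%).

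With versions dropped, GENCODE M21 (GRCm38) held 55230 of the 55471 identifiers and gave the coordinates. Differences were tested by edgeR 4.0.16 (R 4.3.3; quasi-likelihood test, robust, TMM, filterByExpr), adjusted by Benjamini-Hochberg over 14918 genes at 0.05, without covariates. Log2 CPM used a prior count of 2 and ratios a pseudocount of 1. Exact permutation tests used all relabellings of the libraries, where the smallest two-sided p is 0.0159. The fit was tested on simulated data with 200 of 14918 genes changed by 1 log2 unit. It called 59% of these 200 genes, drawn at random from all tested genes, and 4.07% of its calls were false. Changes of that size can thus be missed. The share called among genes as abundant as the members was not measured. Same-group libraries differed beyond sampling noise in a chi-square test of their counts (9.70 to 201 per degree of freedom), so none was counted as a duplicate.

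Alternatives were DESeq2 size factors, the DESeq2 1.42.0 test, limma-voom (3.58.1) with quality weights, no filter, 1 CPM in 4 libraries, strand columns summed, replicate numbers as a block, and each library left out. Controls 1 and 3 were also left out together, since an earlier analysis of these data had set them apart. For the summed marker lists, all leave-outs were added after seeing the data. Named genes were the 10 members, both targeted genes, every gene of the lists past the threshold, the most abundant of each list, and the 5 genes nearest the members' mean. A gene that this rule names is not reported here. Further genes given beside them were chosen for their role or, where said, for their values. The members and lists were chosen with earlier results of these data known. Promoters were searched with Python 3.11.15, and the alignment was made with Biopython 1.88.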

Additional observations from a re-analysis of the deposited data

Results flagged for a closer look

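In groups of 4 or 5 libraries, a library was singled out when its gap to the nearest other exceeded Dixon's 95% limit, a share of the group's range. Of 64 groups examined 3 passed, and chance alone gives about 5%. B2m in control replicate 1 was at 6374.1 CPM, with the nearest control at 4700.2 CPM, a gap of 0.957 of the range. Ctss, a protease of antigen-presenting cells, was at 93.4 CPM in the same library, with the nearest control at 77.5 CPM (0.930). Oas1a in control replicate 2 was at 8.28 CPM, below the nearest control at 11.9 CPM (0.873), and still above the DKO mean of 4.92 CPM.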

How the results depend on the processing

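Over all genes, 422 passed in edgeR, 1010 in DESeq2, 996 in limma-voom and 67 with the replicate number as a block. Leaving out 1 library gave 179 (without DKO replicate 1) to 749 (without control replicate 1). None of the 10 members passed in any of the 17 alternative fits. Without the block, log2 fold changes of B2m were -0.30 to -0.13 (adjusted p 0.17 to 0.517) and those of Nlrc5 -0.10 to 0.31 (0.558 to 0.887). The sign changed in 4 of 16 settings for Tap1 and in 2 each for Psmb8, Psmb10 and Nlrc5, while Tapbp ranged from 0.00 to 0.07. Psme3 passed in all 16 settings without the block. Under the block its adjusted p was 0.0616, and the 4 interferon-inducible genes called became 0. Same-numbered libraries of the groups correlated by -0.117 to 0.0124 in their deviations and 0 of 4 controls correlated best with its own number, so the numbers were not taken as pairs. The numbers are those of the sample titles. The deposited data name control replicate 4 with the number 5, and it correlated best with DKO replicate 5 (0.136), so the check and the block rest on a numbering in doubt. The ratios cannot show stability in this test, since a single ratio could not pass after adjustment. Precision rests on 4 and 5 libraries.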

Other observations

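Messages of the MHC class II pathway, which presents antigen on B cells, dendritic cells and macrophages, did not differ beyond the test's threshold. Of 10 class II pathway genes 8 were tested and 0 passed in edgeR, DESeq2 and limma-voom, with 1 at an unadjusted p under 0.05 (16.0% of all genes). Cd74, the invariant chain, was at 5.96, 4.06, 8.73 and 4.69 CPM in control and 18.7, 11, 13.3, 5.59 and 4.15 CPM in DKO (adjusted p = 0.335). DKO replicates 1 to 3 were above all controls, and replicates 4 and 5 were among them. Lyz2, a myeloid gene, was also highest in DKO replicate 1 (13.6 CPM). So were Csf1r (5.63 CPM), Adgre1 (2.06 CPM) and, under 1 CPM, Cd14 and Siglech. Other genes of the myeloid and dendritic list went the other way in that library. Itgam (32.4 CPM), Ctss (50.3 CPM), Cd68 (16.5 CPM) and Xcr1 (22.3 CPM) were below every control there. Itgax, Fcgr3 and Flt3 were within the control range. The part of other cells was not tested. H2-DMa, the most abundant gene of the list and part of the class II peptide exchange factor, was at 12.6 ± 2.97 and 10.8 ± 1.20 CPM (adjusted p = 0.534). Ciita, the class II counterpart of Nlrc5, was under 1 CPM in every library.

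Of the CD8 T cell list, Cd8b1, which encodes the CD8 β chain, was at 2647, 2035, 2075 and 2226 CPM in control and 1549, 1787, 1579, 1754 and 1836 CPM in DKO. The groups did not overlap (log2 fold change -0.40, adjusted p = 0.0428 in edgeR), and the adjusted p exceeded 0.05 when any library other than control replicate 1 was left out.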
